A study of Mus musculus with 5 samples.

Results

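The comparison of muscle 21 days after a cardiotoxin injury with muscle that had not been injected covered 217 miRNA assays, all of the miRNA assays in the series, and 213 of them could be tested. Members were every miRNA assay in the deposited table of day 21 against baseline, with no choice by level or change. The 5 control RNAs of the same table (U6, snoRNA135, snoRNA202, U87 and Y1) served for scaling only. The study followed miRNAs in regenerating muscle by TaqMan quantitative RT-PCR, in which the Ct is the cycle where the signal crosses a threshold and falls as the amount of RNA grows. The animals were male C57BL/6J mice aged 4 to 6 months, with no transgene or deletion named. In the day 21 group, cardiotoxin at 2.5 µM in saline had been injected (100 µl) into the anterior compartment below the knee of both hind limbs. The baseline group had received no injection, so a saline injection alone was not a control here. The tibialis anterior was taken from 4 mice per time point, and RNA came from a part of each whole muscle. The table gives 4 Ct values per assay and group without naming the mouse behind each. They were taken as 4 mice, and if they were repeat wells the p-values would measure technical spread only. The same 4 baseline values served the comparisons of days 1, 3, 4, 7 and 21.

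Cardiotoxin, a snake venom protein, destroys muscle fibres, after which white blood cells clear the debris and satellite cells, the stem cells of muscle, divide and fuse into new fibres with central nuclei. Weeks after the injury the architecture of the muscle is largely restored, although the new fibres can still be told from uninjured ones. A miRNA is a short RNA that represses messenger RNAs by pairing through its seed, the bases near its 5′ end, and many miRNAs are expressed mainly in 1 cell type or from 1 locus. In whole muscle, fewer cells of a type and less of a miRNA per cell cannot be told apart.

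The mature sequences of the miRNAs with the largest rises are shown first, with the seed (bases 2 to 8) in capitals. Sequences and positions are from RefSeq, mouse build GRCm38.p6, and each runs 5′ to 3′. For an assay without an arm in its name, the arm that the old name stands for was assigned by hand.
miR-433: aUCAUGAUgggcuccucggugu
miR-31: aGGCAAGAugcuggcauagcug
miR-431: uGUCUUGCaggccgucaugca
miR-501-3p: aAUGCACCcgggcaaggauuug
miR-665: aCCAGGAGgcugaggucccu
miR-675-3p: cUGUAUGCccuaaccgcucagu
miR-380-5p: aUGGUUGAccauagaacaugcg
miR-296-5p: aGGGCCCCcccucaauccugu
miR-382: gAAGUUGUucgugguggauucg
No seed was shared among these 9 miRNAs. Their loci were nevertheless grouped. Those of miR-665 (chr12:109586368-109586387, plus strand), miR-431 (chr12:109590459-109590479, plus strand) and miR-433 (chr12:109591781-109591802, plus strand) lay within the protein-coding gene Rtl1, in the imprinted Dlk1-Dio3 region. Those of miR-380-5p (chr12:109711806-109711827, plus strand) and miR-382 (chr12:109733781-109733802, plus strand) lay further along the same region. miR-31 (chr4:88910614-88910635, minus strand) lay in the long noncoding RNA gene Gm49890, miR-501-3p (chrX:7241270-7241291, minus strand) in Clcn5, and miR-675-3p (chr7:142577078-142577099, minus strand) in H19. miR-296-5p (chr2:174267093-174267113, minus strand) overlapped no other gene in the table.

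miR-34c, with the sixth largest rise, is named only. Among the miRNAs that fell, the sequences shown are those of 4 large falls and of 2 groups that share a seed.
miR-135a: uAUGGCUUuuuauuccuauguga
miR-499: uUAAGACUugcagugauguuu
miR-345-3p: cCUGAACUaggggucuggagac
miR-186: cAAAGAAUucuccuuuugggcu
miR-29a: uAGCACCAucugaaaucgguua
miR-29b: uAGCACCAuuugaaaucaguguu
miR-29c: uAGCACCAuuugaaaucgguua
miR-30a: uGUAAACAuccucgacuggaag
miR-30c: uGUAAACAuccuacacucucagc
miR-30e: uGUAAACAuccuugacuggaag
miR-384-5p: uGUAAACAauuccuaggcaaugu
The seed AGCACCA was common to the 3 miR-29 miRNAs, and GUAAACA to the 3 miR-30 miRNAs shown and miR-384-5p. miR-499 (chr2:155622893-155622913, plus strand) lay in Myh7b, a myosin heavy chain gene, and miR-186 (chr3:157544285-157544306, plus strand) in Zranb2. miR-135a had 2 loci with the same mature sequence, at chr9:106154140-106154162 (plus strand) and chr10:92072141-92072163 (minus strand).

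A miRNA was called detected when its Ct was under 35 in at least 3 of 4 values. By that rule 213 miRNAs were detected at baseline and 216 at day 21. Changes are log2 values in which each cycle counts as a doubling. They were scaled to the median miRNA of each set of values (its median difference from the baseline mean over 205 miRNAs under Ct 35 in every well) and, separately, to U6. The direction of a change was called, and the words rose and fell used, only where limma gave an adjusted p under 0.05 under both scalings. Values below are relative to the median miRNA unless U6 is named. For the changes from baseline to day 21, the U6 values are lower by 0.12 throughout. At earlier days the gap differed: at day 1 miR-433 stood at 0.49, and at -1.415 relative to U6. U6 is the noisier scale, with a median residual SD of 0.64 against 0.26. The scale sets the balance of rises and falls, since the control RNAs did not keep together. From baseline to day 21 the mean Ct of U6 went from 14.8 ± 0.26 (SD, n = 4) to 14.6 ± 0.55 (SD, n = 4; exact permutation test, two-sided, p = 0.371). That of snoRNA135 went from 20.3 to 19.0 and that of Y1 from 20.3 to 21.2, with groups that did not overlap for either (exact p = 0.0286, the smallest that 4 against 4 allows; adjusted over the 5 controls, 0.0715). snoRNA202 and U87 differed by 0.16 and 0.39 cycles (exact p = 0.429 and 0.343).

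Muscle miRNAs had not returned to baseline as a whole by day 21. Of 213 miRNAs tested, 47 rose (22.1%) and 41 fell (19.2%), 88 in all (41.3%). By size, 26 of the rises and 6 of the falls were at least 4-fold, and 15 rises and 1 fall at least 8-fold. That order depended on the scale: relative to snoRNA135, 14 of the same rises and 40 of the same falls were at least 4-fold, and 6 and 8 at least 8-fold. The median absolute change was 0.86, against 1.27, 1.53, 1.68 and 1.53 at days 1, 3, 4 and 7, all measured from the same baseline values. For 74 miRNAs the 95% interval lay wholly within 2-fold of baseline, a number that was 12 relative to U6. The Ct ranges of the 2 groups did not overlap for 82 of the 88, and for 130 of all 213 tested (61%). All 47 rises kept their direction under each of the 9 scalings compared and 35 passed under every one. The 9 include the median miRNA and U6, which made the calls. Scaling to another control moves nearly all changes by 1 amount, so the 9 are not independent checks. Of the 41 falls, 36 kept their direction and 7 passed under every one (miR-101a, miR-125b-3p, miR-129-3p, miR-135a, miR-185, miR-186 and miR-187). None of the other falls passed relative to Y1, a scale that put the median of all tested miRNAs at 1.07 and gave 125 miRNAs higher and 7 lower. Relative to snoRNA135 that median was -1.14, with 35 higher and 138 lower. With the other scalings it lay between -0.41 and 0.15.

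**Figure D1:**
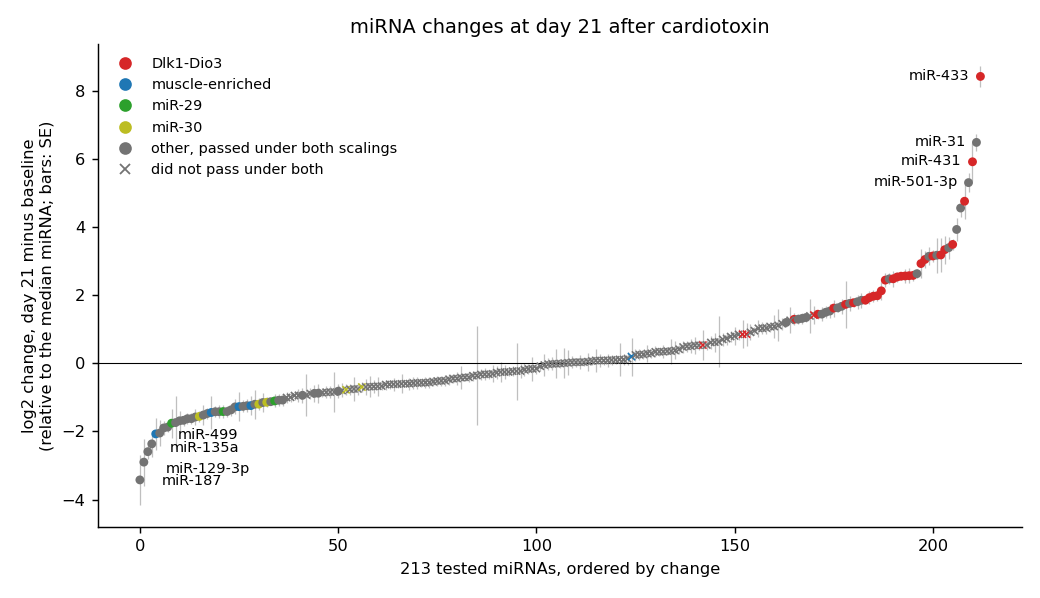
Log2 change from baseline to day 21, relative to the median miRNA, for each of the 213 tested miRNAs in order of change; bars are standard errors, dots passed under both scalings, crosses did not, and colours mark 4 groups. The miRNAs of the Dlk1-Dio3 locus fill much of the upper end, from 0.54 to 8.44, and the muscle-enriched, miR-29 and miR-30 miRNAs lie below 0 apart from miR-486.

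The largest change at day 21 was that of miR-433, an imprinted miRNA of the Dlk1-Dio3 region. Its Ct was 33.8, 34.83, 34.98 and 33.3 at baseline and 25.8, 25.7, 25.4 and 25.6 at day 21. The baseline values were near the detection limit and those of day 21 were tightly grouped far from it. The rise was 348-fold (log2 8.44, SE 0.31, limma adjusted p = 9.52e-16), and 320-fold relative to U6. miR-31, which in quiescent satellite cells represses the messenger RNA of the myogenic factor Myf5, read 27.1, 26.8, 26.5 and 25.2 at baseline and 19.95, 19.93, 19.6 and 19.5 at day 21. Every day 21 value was more than 5 cycles below every baseline value. It rose 90.6-fold (log2 6.50, SE 0.24, limma adjusted p = 9.52e-16).

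miR-431, a neighbour of miR-433 that is known to repress the satellite cell factor Pax7, rose 61.0-fold (log2 5.93, SE 0.55). Its Ct was 27.7, 30.4, 29.4 and 28.7 at baseline and 22.9, 23.4, 22.7 and 22.8 at day 21, so the spread was mostly at baseline. miR-501-3p, from the X-linked gene Clcn5, read 28.6, 28.6, 28.6 and 27.1 at baseline and 22.5, 22.5, 23.2 and 22.9 at day 21. It rose 39.9-fold (log2 5.32, SE 0.29). The baseline of miR-665, also of the Rtl1 stretch, straddled the limit at 34.2, 34.4, 32.7 and 35.7, with 29.4, 29.1, 29.9 and 28.9 at day 21. The rise was 27.3-fold (log2 4.77, SE 0.53), and its size depends on baseline wells at the end of the measuring range. miR-34c, whose gene the tumour suppressor p53 switches on, went from 30.7, 30.6, 30.3 and 28.5 to 25.4, 25.3, 25.3 and 25.2. The groups did not overlap, and the rise was 23.8-fold (log2 4.57, SE 0.26).

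The 4 other miRNAs among the 10 largest rises were miR-675-3p, cut from the imprinted growth-related RNA H19, with a change of 3.94 (SE 0.33), miR-380-5p with 3.50 (SE 0.17), miR-296-5p with 3.40 (SE 0.32) and miR-382 with 3.35 (SE 0.41). All 10 passed relative to every one of the 9 scalings. Each of the 10 also kept its call when any 1 of the 8 values was left out, except that miR-665 could not be tested without 3 of the baseline values, each in turn.

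**Figure D2:**
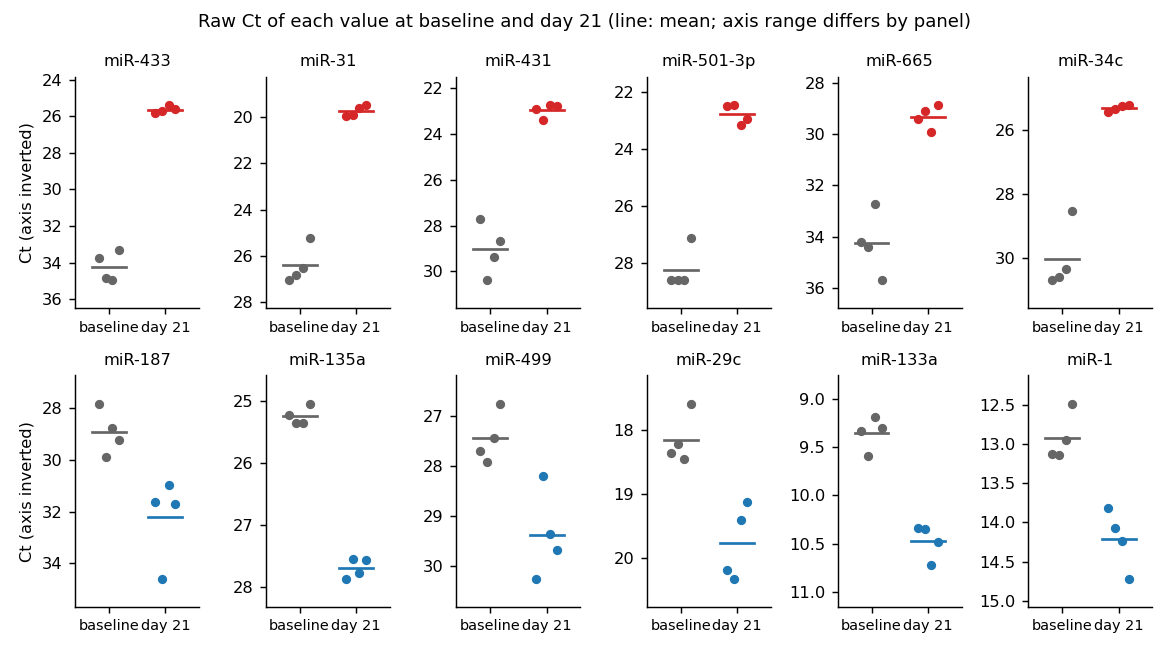
Raw Ct of each of the 4 values at baseline (grey) and day 21 (red for miRNAs that rose, blue for those that fell), with the mean as a line; the Ct axis is inverted, so higher means more RNA, and its range differs between panels. In none of the 12 panels do the groups overlap, and the day 21 values of miR-187 and miR-499 are the most spread.

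The miRNAs of the Dlk1-Dio3 region on chromosome 12 rose nearly together. The region is imprinted: its miRNAs are made from the maternal chromosome, and those within Rtl1 are antisense to that paternally expressed gene, to which they are fully complementary. Of 30 measured and tested members, 26 rose and none fell (86.7% called, against 22.1% of all tested miRNAs called higher), with a median change of 2.47 against 0.00 for all tested. They made up 26 of the 47 rises. Outside the region 21 of 183 miRNAs rose (11.5%). Relative to snoRNA135, the scale least favourable to a rise, the median of the 30 was 1.33 and 27 were positive. Relative to Y1 it was 3.54.

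Within the region the 9 miRNAs of the Rtl1 stretch all rose, by 1.30 to 8.44 with a median of 2.49. Of the 19 from miR-379 to miR-410, a long row of hairpins further along the chromosome, 15 rose, and the changes ran from 0.54 to 3.50 with a median of 2.14. These sub-groups, and the miRNAs named in the next sentences, were chosen after their values were seen. The medians were close, and the 3 largest rises of the region, those of miR-433, miR-431 and miR-665, came from adjacent measured hairpins of the Rtl1 stretch. miR-127 (chr12:109592888-109592909), the next hairpin, had a Ct of 21.1, 21.0, 20.7 and 20.7 at baseline and 17.3, 17.6, 17.8 and 17.7 at day 21. Its rise was 3.16 (SE 0.18), with groups well apart.

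At the far end of the Rtl1 stretch, miR-136 (chr12:109595331-109595352) had a change of 2.49 (SE 0.23). miR-379 (chr12:109709065-109709085) and miR-410 (chr12:109743764-109743784), the first and the last of the long row, rose by 2.57 (SE 0.12) and 2.59 (SE 0.17). So the ends of the row differed by less than their errors. The 4 members that did not pass were miR-495 at 1.42 (SE 0.25), miR-543 at 0.86 (SE 0.34), miR-134 at 0.86 (SE 0.41) and miR-376b at 0.54 (SE 0.45). miR-370, the hairpin between both stretches, passed with 1.74 (SE 0.68), although its Ct ranges overlapped (29.2 to 31.8 at baseline, 27.6 to 29.4 at day 21).

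**Figure D3:**
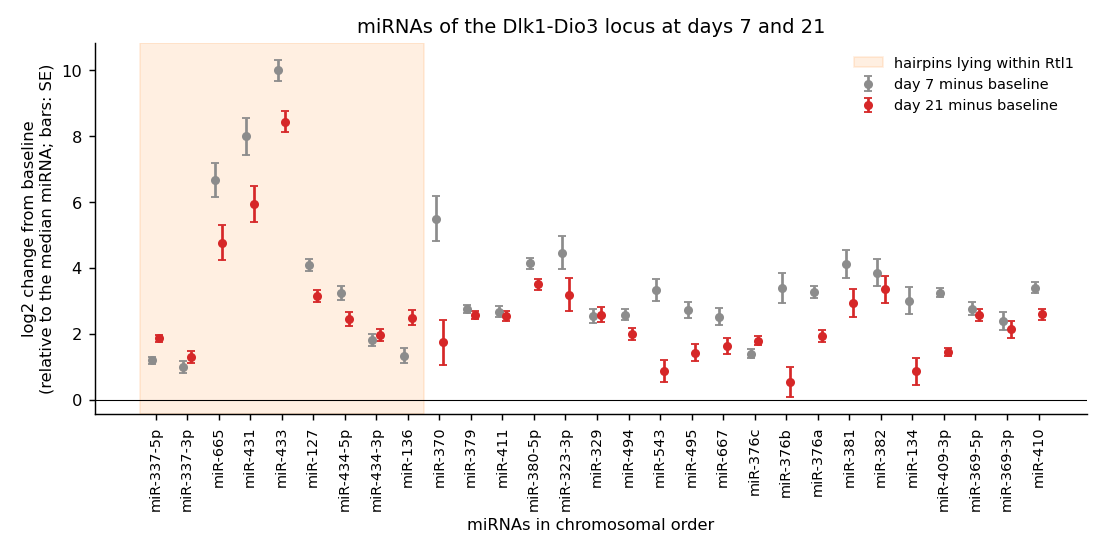
Log2 change from baseline at day 7 (grey) and day 21 (red), relative to the median miRNA, with standard errors, for the 29 Dlk1-Dio3 miRNAs with a RefSeq position, in chromosomal order and not to scale; the shaded miRNAs lie within Rtl1. miR-665, miR-431 and miR-433 stand above the rest at both times, and every point at day 21 is above 0.

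Some other imprinted and clustered miRNAs were also higher. From the imprinted loci outside Dlk1-Dio3 that were listed as a group, 4 of 4 tested members rose (22.1% of all tested did), with a median of 3.28. They were miR-675-3p and miR-296-5p, described above, and both arms of miR-335, a hairpin within the imprinted gene Mest: miR-335-5p rose by 3.15 (SE 0.27) and miR-335-3p by 1.77 (SE 0.23). The fifth member, miR-298, a neighbour of miR-296, was undetected at baseline and under Ct 35 in 4 of 4 values at day 21. Against that limit its level at day 21 exceeded baseline at least 17.1-fold, or 15.7-fold by the U6 scale. This group did not take in the 6 miRNAs from the intron of Sfmbt2. They were listed apart, and none of them passed (median 0.45). Of 6 miRNAs from the gene Clcn5, a group put together after its values were seen, 5 rose, again against 22.1% of all tested, with a median of 1.75. miR-501-3p led them, followed by miR-500 at 2.64 (SE 0.13) and miR-362-3p at 1.86 (SE 0.23).

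The X-linked miR-322 cluster had 4 of 6 members higher (22.1% of all tested) and none lower, with a median of 1.59. miR-351 read 32.5, 34.9, 34.96 and 33.7 at baseline and 30.2, 30.5, 31.0 and 31.1 at day 21. Its rise of 3.18 (SE 0.51) started from values near the limit. miR-542-5p rose by 1.82 (SE 0.20), miR-542-3p by 1.68 (SE 0.22) and miR-503 by 1.51 (SE 0.18). miR-322 itself stood at 0.09 (SE 0.18) and did not pass. In the miR-34 family, miR-34b-3p rose by 2.49 (SE 0.16) beside its cluster partner miR-34c. miR-34a, which has a locus of its own, was at 0.07 (SE 0.13). Both family medians stayed above 0 under all 9 scalings.

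Most muscle-enriched miRNAs were lower at day 21. These are made in muscle fibres, and miR-1 in particular promotes differentiation of muscle precursors. miR-1 and miR-133a were read early in each group (Ct 12.5 to 13.1 and 9.2 to 9.6 at baseline, 13.8 to 14.7 and 10.3 to 10.7 at day 21). Of 5 measured members 4 fell and none rose (80%, against 19.2% of all tested called lower), with a median of -1.27. The median stayed below 0 under all 9 scalings but was only -0.20 relative to Y1, where none of the 4 passed as lower. With quantile scaling it was -0.31, and miR-499 alone passed.

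miR-499, which lies in the slow myosin gene Myh7b and is linked to the slow fibre programme, read 27.7, 27.9, 27.4 and 26.8 at baseline and 30.3, 28.2, 29.4 and 29.7 at day 21. Its second day 21 value lay close to the baseline values, and the other 3 well apart. The fall was 4.20-fold (log2 -2.07, SE 0.47, limma adjusted p = 5.18e-04, and 0.0037 relative to U6). miR-1 had a Ct of 13.1, 13.1, 12.9 and 12.5 at baseline against 13.8, 14.1, 14.2 and 14.7 at day 21. The groups did not overlap. The change was -1.44 (SE 0.47), with limma adjusted p-values of 0.0094 and, by the U6 scale, 0.029. In 5 of the 8 fits that left out 1 value miR-1 no longer passed.

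miR-133a read 9.3, 9.6, 9.2 and 9.3 at baseline and 10.3, 10.3, 10.7 and 10.5 at day 21. It fell by 1.27 (SE 0.43), and the call was lost without the third or the fourth day 21 value. miR-133b, its close relative, fell by 1.24 (SE 0.28) and kept its call in all 8 such fits. miR-486, made within the ankyrin gene Ank1 and found in both muscle and red cells, stood at 0.20 (SE 0.56) and was the member that did not pass. Its Ct was 26.6, 27.3, 26.2 and 25.8 at baseline and 26.5, 27.6, 24.9 and 25.5 at day 21, ranges that overlapped almost wholly. The red cell miRNA miR-451 was at -0.75 (SE 0.35) and did not pass.

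Both groups that share a seed were lower. The miR-29 miRNAs, which repress collagens and other matrix genes, fell in 3 of 3 cases (19.2% of all tested did) with a median of -1.41. miR-29c read 18.4, 18.2, 18.5 and 17.6 at baseline and 20.2, 20.3, 19.4 and 19.1 at day 21, with no overlap, and fell by 1.76 on the log2 scale (SE 0.43). miR-29b fell by 1.41 (SE 0.19) and miR-29a by 1.10 (SE 0.19).

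In the miR-30 family, whose members are abundant in heart and skeletal muscle, 3 of 5 fell, against 19.2% of all tested, and none rose, with a median of -1.14. miR-30c went from 13.5, 13.5, 13.1 and 13.1 to 14.8, 14.6, 14.6 and 14.8, a fall of 1.56 (SE 0.17) between 2 tight groups. miR-30e fell by 1.20 (SE 0.18) and miR-30b by 1.14 (SE 0.15), while miR-30a at -0.77 (SE 0.16) did not pass relative to U6 (adjusted p = 0.099). miR-384-5p, added for its seed after its value was seen, fell by 0.82 (SE 0.21). Relative to Y1 the medians of the miR-29 and miR-30 groups were -0.34 and -0.07, and no member of either passed as lower. With quantile scaling they were -1.64 and -0.49, and miR-29a and miR-30b no longer passed.

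The largest falls belonged to miRNAs outside these groups. miR-187 read 27.8, 29.9, 28.8 and 29.3 at baseline and 31.6, 34.6, 31.0 and 31.7 at day 21, where the second value stood apart from the others. It fell 10.7-fold (log2 -3.42, SE 0.73), and by 2.65 on the log2 scale without that value. The second day 21 value also weighed on miR-129-3p, a miRNA better known from neurons, with a Ct of 29.7, 30.1, 28.8 and 29.2 at baseline and 31.3, 35.3, 30.0 and 32.2 at day 21. Its ranges overlapped, and the fall was 2.90 (SE 0.69) with the second value and 1.88 without it.

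miR-135a fell with little spread. Its Ct was 25.2, 25.4, 25.4 and 25.0 at baseline and 27.9, 27.6, 27.8 and 27.6 at day 21, with more than 2 cycles between the groups. It fell 6.04-fold (log2 -2.59, SE 0.21, limma adjusted p = 4.7e-10), and 6.57-fold relative to U6. miR-125b-3p fell by 2.36 (SE 0.38), miR-345-3p by 2.05 (SE 0.38), miR-186 by 1.90 (SE 0.20), miR-185 by 1.87 (SE 0.14) and miR-685 by 1.74 (SE 0.77). The last of these rested on the second day 21 value, since its Ct was 30.5, 33.6, 28.7 and 28.7 against 28.7, 28.8, 30.0 and 27.6 at baseline. Without that value the change of miR-685 was -0.69 (adjusted p = 0.304).

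miR-101a, which represses the chromatin enzyme Ezh2, fell by 1.67 (SE 0.16), and the neighbouring miRNAs miR-365 and miR-193b fell by 1.52 (SE 0.29) and 1.15 (SE 0.27). miR-26a, another repressor of Ezh2 in muscle precursors, was at -0.89 (SE 0.16) and did not pass relative to U6. Of the 41 falls, 23 belonged to none of the groups followed here, against 3 of the 47 rises. These counts depend on how the groups were made, and no conclusion is drawn from them. The Clcn5 group, put together after its values were seen, holds 5 of the rises. miR-384-5p is counted among the 23.

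Both arms of a hairpin are cut from 1 precursor and were measured by separate assays, so they allow a look at the assays themselves. miR-125b was left out of this comparison. For the 16 other hairpins with both arms tested, 13 had arms with the same sign, and the median absolute difference between arms was 0.46. In 10 of the 16 both arms were called in the same direction. In none of the 16 was 1 arm called alone or were the arms called in opposite directions. For miR-125b, left out here, 1 arm was called alone. miR-125b-3p fell (mean Ct 29.2 at baseline and 31.4 at day 21), while miR-125b-5p (18.2 and 18.0) was not called. Arms still differed in size: miR-335-5p exceeded miR-335-3p by 1.39, and miR-342-5p, at 1.27 (SE 0.38, not called), exceeded miR-342-3p by 1.52.

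Among 9 tested myeloid and lymphoid miRNAs none passed in either direction (0%, against 41.3% of all tested), with changes from -0.79 to 1.27 and a median of 0.00. Relative to the median miRNA alone, where 73.2% of all tested passed (35.7% higher, 37.6% lower), 4 were higher and 3 lower. Relative to Y1 7 of the 9 were higher, and relative to snoRNA135 5 were lower. miR-223, the most specific of them for granulocytes and monocytes, read 18.7, 18.8, 18.7 and 18.7 at baseline and 18.5, 18.7, 18.6 and 18.6 at day 21. Its change was 0.00 (SE 0.12), after 6.53 at day 1, but it was 1.07 relative to Y1. miR-142-3p, carried by all blood lineages, was at 0.92 (SE 0.23) and miR-142-5p at 0.79 (SE 0.15), both short of the threshold relative to U6. The lymphocyte miRNA miR-150 was at -0.79 (SE 0.21). miR-147, which macrophages make when activated, was under Ct 35 in 2 of 4 baseline values and all 4 at day 21, at least 7.32-fold higher against the limit (6.73-fold relative to U6).

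Of 14 miRNAs tied to satellite cells and myoblasts, miR-31 rose and miR-101a fell, and the median was 0.07. Among all tested miRNAs 22.1% rose and 19.2% fell. miR-489, which holds satellite cells in quiescence, was at 0.02 (SE 0.37). The endothelial miR-126-3p was at -0.61 (SE 0.13) and miR-126-5p at -0.61 (SE 0.20). Among 6 miRNAs of fibroblasts and smooth muscle, 1 fell (19.2% of all tested did). This was miR-145, a smooth muscle miRNA, by 1.41 (SE 0.16). Its cluster partner miR-143 was at -0.85 (SE 0.17) and miR-21, which is raised in fibroblasts of scarred tissue, at 1.04 (SE 0.18), and neither passed.

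Of 5 tested epithelial miRNAs 1 fell, miR-200c by 1.24 (SE 0.19), a share near the 19.2% of falls among all tested, as were those of the neuronal and the liver and endocrine lists. miR-200a stood at 1.12 (SE 0.47, adjusted p = 0.0555 relative to U6), with baseline values of 33.5 to 35.8. The skin miRNA miR-203 was at 0.14 (SE 0.18), and miR-429, of the miR-200 family, was under the limit in 1 value of each group and was not tested. Among 5 neuronal miRNAs only miR-129-3p was called. The liver and endocrine list had 1 fall in 4, that of miR-194 by 0.88 (SE 0.25). The part of other cell types in the falls of the muscle-enriched miRNAs was not tested.

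In the remaining families the shares that passed were at or under those of all tested miRNAs (22.1% higher, 19.2% lower) or, for the miR-15/16 falls, close to them. let-7c rose by 1.35 (SE 0.14) and was the 1 of 9 let-7 miRNAs to pass, and the let-7 median was -0.27. Among 11 miRNAs of the miR-17-92 cluster and its paralogues, which drive proliferation, miR-18a rose by 1.30 (SE 0.15), and the median was -0.25. In the miR-15/16 family, miR-16 fell by 1.08 (SE 0.17) and was the 1 of 5 to pass. None of 6 miR-99/100 and miR-125 miRNAs passed, none of 6 from the intron of Sfmbt2 and neither miR-103 nor miR-107, which act on insulin signalling. These were not all at 0: relative to the median miRNA alone, 2 of the miR-99/100 and miR-125 group and miR-103 were lower and 3 of the Sfmbt2 group higher. miR-680 was detected in 2 of 4 baseline values and 3 of 4 at day 21, and no fold could be given. Several of the smaller changes depended on single values: of 8 fits that each left out 1 value, the call was lost in 6 for miR-194, in 5 for miR-18a, miR-30b and miR-685, in 4 for miR-193b and in 3 for let-7c and miR-16.

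**Figure D4:**
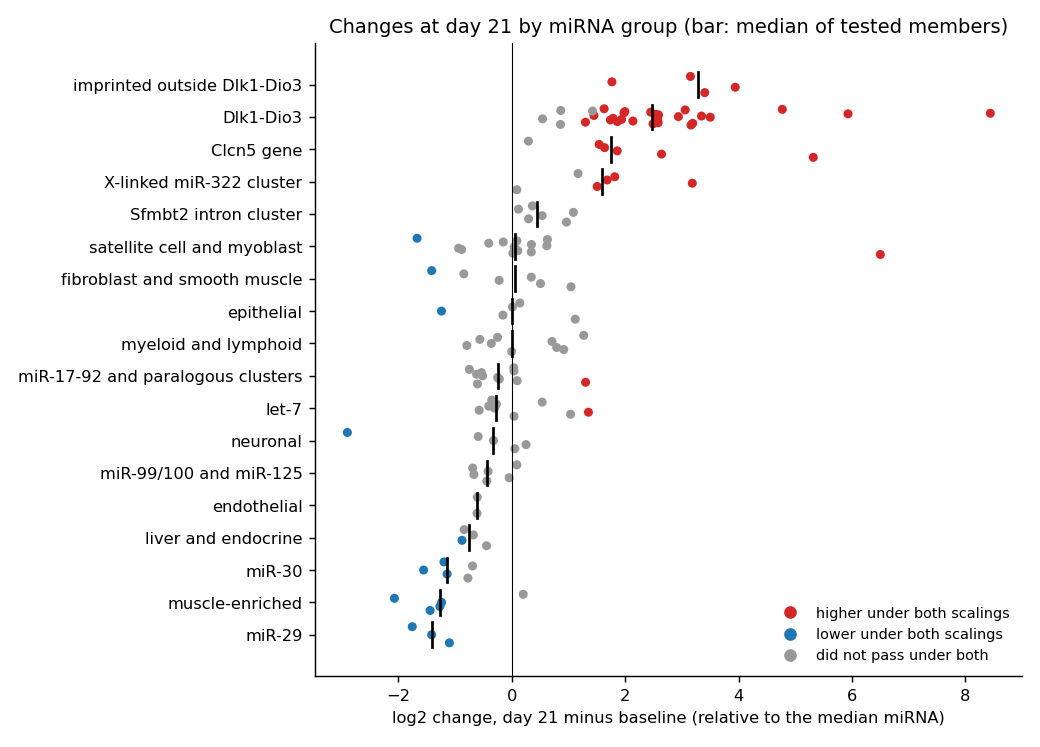
Log2 change from baseline to day 21, relative to the median miRNA, of each tested member of 18 groups; red and blue dots passed under both scalings as higher or lower, grey dots did not, and the black bar is the group's median. The imprinted and X-linked groups lie to the right of 0 and the miR-30, muscle-enriched and miR-29 groups to the left.

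Set directly against day 7, a part of the pattern at day 21 differed. In the same fit, 216 miRNAs could be tested between both times, and 42 were higher (19.4%) and 31 lower (14.4%) at day 21. The count of higher miRNAs was not firm: it was 22 and 15 without the first and the fourth day 7 value, and 21 and 20 without the first and the second day 21 value. Both times share the baseline when each is set against it, so their changes from it are given side by side.

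The muscle-enriched miRNAs were 3 of 5 higher at day 21 than at day 7 (19.4% of all tested were), by a median of 1.40, and none lower. miR-1 went from -3.29 at day 7 to -1.44, miR-133a from -3.11 to -1.27 and miR-486 from -1.20 to 0.20. miR-499 was at -1.77 and -2.07 at these times, a difference that did not pass. All 5 miR-30 miRNAs were higher at day 21 than at day 7 (19.4% of all tested were), by a median of 1.99. miR-30c stood at -3.55 and then at -1.56. Of the miR-29 miRNAs 2 of 3 were higher, again against 19.4%, and miR-29c went from -3.72 to -1.76. The endothelial miR-126-3p, at -2.24 on day 7, was higher by 1.63 at day 21.

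The Dlk1-Dio3 miRNAs had median changes of -1.04, 0.18, 1.82 and 3.12 at the successive times from day 1 to day 7. At day 21 the median was 2.47. The changes of days 1, 3 and 4 were lower relative to U6, and a sign could turn. miR-380-5p stood at 0.25 on day 3, and at -0.87 relative to U6. Between days 7 and 21, 10 of 30 were lower (14.4% of all tested) and 1, miR-136, higher (19.4% of all tested). miR-433 went from 9.99 to 8.44 and miR-370 from 5.50 to 1.74, both lower at day 21. miR-136 went from 1.33 to 2.49. miR-31 stood at 6.30 on day 7 and 6.50 on day 21, and miR-34c at 5.15 and 4.57, and neither difference passed.

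Among miRNAs that were also tested against baseline, the steepest declines between days 7 and 21 were those of miR-351, from 8.66 to 3.18, of miR-685, from 2.67 to -1.74, and of miR-200a, from 5.40 to 1.12. miR-298, without a baseline level, had a mean Ct of 23.2 at day 7 and 30.8 at day 21, and miR-680 one of 27.8 and 33.8. miR-187 did not follow a steady course. It stood at -5.13 on day 3, 0.90 on day 4 and -0.50 (SE 0.73) on day 7, and was lower by 2.92 at day 21 than at day 7. miR-135a was at -3.91 on day 7 and -2.59 on day 21, and had been 2.69 above baseline at day 1. That last value depends on the scale. From baseline to day 1 the mean Ct of miR-135a went from 25.2 to 22.2 and that of U6 from 14.8 to 12.5.

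**Figure D5:**
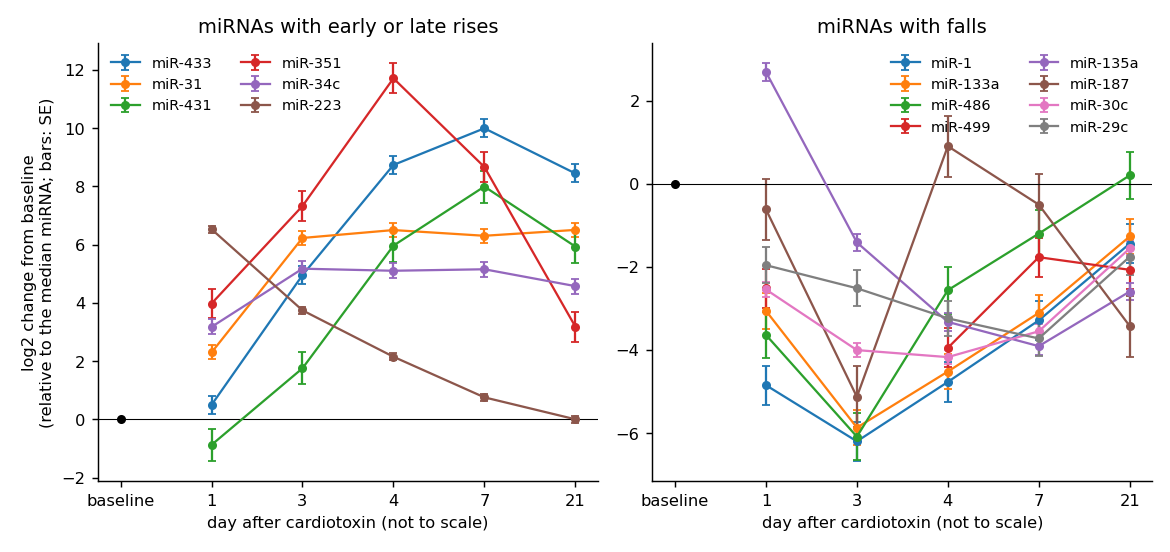
Log2 change from baseline relative to the median miRNA at days 1, 3, 4, 7 and 21, with standard errors and the days not to scale; the left panel holds miRNAs with rises and miR-223, the right panel miRNAs with falls and miR-486. miR-31, miR-34c, miR-431 and miR-433 remain far above 0 at day 21 while miR-223 is at 0, and miR-1, miR-133a and miR-30c lie closer to 0 at day 21 than at day 7; miR-499 has no point at day 3, where it could not be tested.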

How the data were processed

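Per the labels' protocols, RNA (RIN above 9) was isolated with miRNeasy kits and a 7900HT instrument ran TaqMan reactions of 40 cycles. The authors deposited raw Ct values with no scaling. For RNA input and the Ct threshold setting, the sources used here give nothing. The baseline values of the 5 deposited tables were identical and used once. Minus Ct was scaled to the median miRNA and to U6 and fitted over all 6 groups with limma 3.58.1 in R 4.3.3 (lmFit, eBayes), with Benjamini-Hochberg adjustment over all miRNAs tested. Values at 40 were left out, and a miRNA was tested when under Ct 35 in 3 of 4 values of both groups. The fit was tested on simulated data. Control RNAs were compared by exact permutation tests.

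Named miRNAs were the 10 largest changes in each direction, miR-31, miR-433, miR-499, miR-135a, all muscle-enriched miRNAs, up to 4 per group, the 10 largest earlier changes, and those detected in 1 group; others are said to be chosen later. Members and groups were chosen with earlier results of these data known. Of 217 assay names, 184 had a mature RefSeq entry. Other scalings, Ct limits, fits, and leaving out each value were tried.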

Additional observations from a re-analysis of the deposited data

Results flagged for a closer look

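Among 176 groups of 4 values of named miRNAs, 9 (5.11%) held a value far from the other 3 by Dixon's ratio, where chance gives about 5%. Values are Ct corrected for the offset of the value set. At baseline these were the fourth value of miR-31 (25.5, others 26.6 to 26.8) and of miR-34c (28.8, others 30.4 to 30.5), the second of miR-380-5p (28.4, others 27.8), of miR-194 (23.4, others 23.2) and of miR-669a (30.3, others 28.5 to 28.6), and the first of miR-128a (21.8, others 21.7) and of miR-34a (22.4, others 21.8 to 21.9). At day 21 they were the second value of miR-30b (15.0, others 15.2 to 15.3) and the first of miR-193b (18.2, others 17.96 to 17.99). The low baseline Ct of miR-31 and miR-34c makes their rises smaller, not larger.

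miR-685 was below baseline at day 21 (-1.74) and above it at day 7 (2.67). The difference of -4.41 between these times was tested directly (limma adjusted p = 4.05e-05), and the day 21 arm of it rested in part on 1 value.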

How the results depend on the processing

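The 47 rises kept their direction under all 9 scalings, as did 36 of the 41 falls, while the counts of both moved. Against the 47 higher and 41 lower miRNAs at day 21 than baseline, the counts were 35 and 138 relative to snoRNA135, 74 and 77 relative to snoRNA202, 54 and 80 relative to U87, 125 and 7 relative to Y1, 55 and 103 with the median Ct, 57 and 76 with quantile scaling, 78 and 61 on raw Ct, and 76 and 80 relative to the median miRNA alone, a setting added after seeing the data. The share of calls that were higher, 53.4% in the report's fit, was 20.2% with snoRNA135, 40.3% with U87, 94.7% with Y1, 34.8% with the median Ct and 42.9% with quantile scaling. Leaving out 1 value gave 41 to 49 higher and 27 to 43 lower, the lowest without the fourth day 21 value. Ct limits of 32, 38 or none, values at 40 kept, 2-group fits, limma-trend and size thresholds kept these counts within 1.5 times. For day 21 against day 7 (42 and 31), the counts were 79 and 62 with snoRNA135, 38 and 114 with snoRNA202, 40 and 76 with U87, 64 and 52 with Y1, 81 and 69 with the median Ct, 72 and 67 with quantile scaling, 15 and 143 on raw Ct, 83 and 70 with the median miRNA alone, and 23 and 25 with only those 2 groups in the fit. Leaving out 1 value gave 15 to 50 higher and 26 to 41 lower.

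Relative to snoRNA135 the sign turned for 55 of 213 tested miRNAs, and relative to Y1 for 70. Among named miRNAs with a call under either scale it turned, relative to snoRNA135, for let-7i (-0.60), miR-199a-3p (-0.63), miR-203 (-0.998), miR-128a (-0.89), miR-15b (-0.60) and miR-34a (-1.07). Relative to Y1 it did so for miR-200b (0.92), miR-132 (0.75), miR-194 (0.19), miR-192 (0.63), miR-15a (0.85) and miR-223 (1.07). The cause was not tested. Of the 41 falls, 4 had a positive change relative to Y1: miR-194, miR-196b (0.14), miR-339-5p (0.20) and miR-384-5p (0.26). No paired analysis was possible because the values carry no mouse or replicate number. The scalings took the values at the same position in every assay as 1 sample, an order that was assumed. Baselines near Ct 35 limit the sizes for miR-433, miR-665 and miR-351.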
